A study of Mus musculus with 6 samples.

Results

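The p53 pathway was followed through 32 genes: p53 itself (Trp53), its relative Trp73, the feedback genes that restrain or modulate p53, and target genes that act in apoptosis, metabolism, DNA repair and the cell cycle. The members were chosen by gene name, with earlier results of these data known, and all 32 were found among the 54532 genes of the deposited table. All 32 also passed the filter on low counts, so that every member was among the 16606 genes tested. RNA came from primary neurospheres, free-floating colonies of cultured neural progenitor cells, of C57BL/6 mouse embryos at E14.5, taken on day 6 of culture with EGF and bFGF at 20 ng/ml each. The libraries numbered 3, 6 and 7 were labelled wild type (WT). Those numbered 1, 2 and 3 were labelled as a conditional knockout of Ash2l (KO), made with D6-Cre, a Cre transgene that acts in the dorsal forebrain. The protein that Ash2l encodes is a core part of every COMPASS complex, the enzymes that place methyl groups on histone H3 lysine 4 (H3K4). The source is named as dorsal cortex and the dissected part as the lateral walls of the lateral ventricles, so the share of cells in which D6-Cre had acted cannot be told from the labels. Whether WT embryos carried Cre or floxed alleles is not given in the sources used here. Here the comparison of KO with WT spheres is read for the transcripts of this pathway.

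The p53 protein is a transcription factor that is made continuously and destroyed continuously, because the ubiquitin ligase MDM2, itself a p53 target, marks it for degradation. Damage or stress blocks that destruction, and p53 then switches on genes that stop the cell cycle, repair DNA or kill the cell. Because p53 is controlled mainly as a protein, its targets' transcripts, more than its own, are what RNA can show. In the embryonic brain, neural progenitors are known to be sensitive to p53-dependent apoptosis.

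The members were chosen by name and not by motif, and the promoters available for them were searched for the motif that p53 binds. p53 binds pairs of a motif of 10 letters, the p53 decamer, which reads the same on both strands. RefSeq promoters (build GRCm38.p6, 250 bases before to 50 after each start) were matched by symbol for 23 of the 32 members. They were searched for 2 decamers up to 13 bases apart, with the C and G of each core fixed and with mismatch limits chosen after the matches were seen. A pair with at most 2 mismatches over its 20 letters was found for 5 of the 23 members, and for 4.71% of all genes in the promoter table. With at most 3 mismatches it was found for 10 of the 23, and for 17.4% of all genes. The 5 members of the stricter set, and Bbc3 and Aen of the wider set as apoptotic targets, are printed on the strand of the gene with the decamers in capitals. For Gtse1 and Aen the match runs past the start, and the match alone is printed.
Ccng1 (chr11:40755432-40755511, minus strand, 1 mismatch): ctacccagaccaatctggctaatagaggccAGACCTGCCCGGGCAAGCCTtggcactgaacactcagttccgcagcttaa
Gtse1 (chr15:85859945-85859964, plus strand, 1 mismatch): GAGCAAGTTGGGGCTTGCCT
Bax (chr7:45467060-45467144, minus strand, 2 mismatches): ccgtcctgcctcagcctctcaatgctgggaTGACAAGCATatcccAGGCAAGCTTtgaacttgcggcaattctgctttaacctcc
Sesn1 (chr10:41887223-41887305, plus strand, 2 mismatches): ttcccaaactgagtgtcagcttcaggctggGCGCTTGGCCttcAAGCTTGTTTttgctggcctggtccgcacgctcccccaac
Trp73 (chr4:154097190-154097269, minus strand, 2 mismatches): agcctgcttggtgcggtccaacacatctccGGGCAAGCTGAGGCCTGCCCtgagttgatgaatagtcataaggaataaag
Bbc3 (chr7:16309456-16309535, plus strand, 3 mismatches): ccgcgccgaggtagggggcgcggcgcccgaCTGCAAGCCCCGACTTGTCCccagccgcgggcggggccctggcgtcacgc
Aen (chr7:78895919-78895946, plus strand, 3 mismatches): AGACAGGTAGccgaagccGGGCTTGTCC
A match is a description of these letters, and no binding was measured. Many p53 sites lie outside so short a window.

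Of the 10 members with at most 3 mismatches, 4 were higher in KO (Gtse1, Trp73, Aen and Plk3), 1 was lower (Sesn1) and 5 did not pass the edgeR test, in which 13.5% of all genes were higher and 15.5% lower. Of the other 13 matched members, 6 were higher, none was lower and 7 did not pass. The genes with the closest matches, Ccng1 and Gtse1, had log2 fold changes of 0.57 and 3.41.

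Total counts ran from 16764480 to 21983659 per library. Values are given as CPM, read counts scaled to library size with TMM factors, and 3 reads correspond to 0.142 to 0.173 CPM. Ash2l itself averaged 113 ± 3.55 CPM over the WT and 95.9 ± 8.41 over the KO libraries (SD, n = 3 each), with all KO libraries below all WT libraries, and did not pass the test (log2 fold change -0.24, SE 0.10, edgeR adjusted p = 0.119). The labels do not name the deleted exons, and reads from any retained exon are part of this count. Nothing in the labels ties the libraries to separate embryos or cultures, so p-values measure only the spread between libraries, which may be technical. WT 3 stood apart from the other WT libraries, at -25.5 on principal component 1 against -81.7 and -85.7, with KO at 53.5 to 76.8. The marker counts that follow stand beside 13.5% of all genes higher and 15.5% lower in KO in the edgeR test. Of 8 neural progenitor markers 4 were lower (Sox2, Pax6, Hes5 and Prom1), 1 was higher (Nes) and 3 did not pass (Fabp7, Slc1a3 and Vim). Their summed level was 4633 to 6399 CPM in WT and 4317 to 6927 CPM in KO. Sox2 was measured at 534 to 613 CPM in WT and 185 to 299.5 CPM in KO, and Nes at 93.8 to 171 and 525 to 769 CPM. Proliferation genes were higher in KO in 15 of 15 cases, with a summed level of 238 to 458 CPM in WT and 2322 to 3061 CPM in KO. Astrocyte and oligodendrocyte markers were lower in 6 of 7 cases each, with summed levels of 1580 to 6016 and 2109 to 3071 CPM in WT. In KO these sums were 369 to 669 and 160.2 to 431 CPM. Of 7 neuron markers 2 were higher (Gap43 and Syp) and 5 did not pass. All 7 together summed to 1393 to 2437 CPM in WT and 2404 to 3542 CPM in KO. Mural and meningeal markers (2 of 6 higher) summed to 19.1 to 26.9 CPM in WT and to 267, 22.6 and 47.3 CPM in KO 1, KO 2 and KO 3. Microglia markers summed to 10.1 CPM in KO 1 and to at most 2.51 CPM elsewhere, with 2 of the 6 tested and none called. The 6 endothelial markers summed to 4.59 to 6.98 CPM in WT and 2.74 to 4.78 CPM in KO. Of the 2 tested, Kdr was lower and Pecam1 did not pass, and Cdh5 and Cldn5 were at 0 in all WT libraries. The part of these differences in the results on the p53 pathway was not tested, and in bulk samples fewer cells of a type and less RNA per cell cannot be told apart.

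More members were higher than lower in KO spheres. In the edgeR quasi-likelihood test, with Benjamini-Hochberg adjustment over all genes and a threshold of 0.05, 13 of the 32 members were higher and 4 were lower, and 15 did not pass. Of all 16606 genes tested, 13.5% were higher and 15.5% were lower, 29% in all. The members had a median log2 fold change of 0.52, and all genes tested one of 0.00186. All KO libraries lay above all WT libraries for 18 members, against 23.5% of all genes, and below them for 4, against 25.2% of all genes (48.6% in either direction). Apoptotic targets were higher or did not pass, repair targets were lower or did not pass, and the feedback genes Mdm2, Mdm4, Ccng1 and Trp53inp1 did not pass. The counts depended on single libraries: without WT 6, 5 members were higher (6.04% of all genes) and 2 lower (6.77% of all genes). Without WT 7, KO 2 or KO 3, 8 members were higher in each case, against 6.84%, 7.09% and 12.5% of all genes. Without WT 7, KO 1 or KO 2, 2 members (6.25%) were lower, near the 7.56%, 8.15% and 7.49% of all genes.

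**Figure D1:**
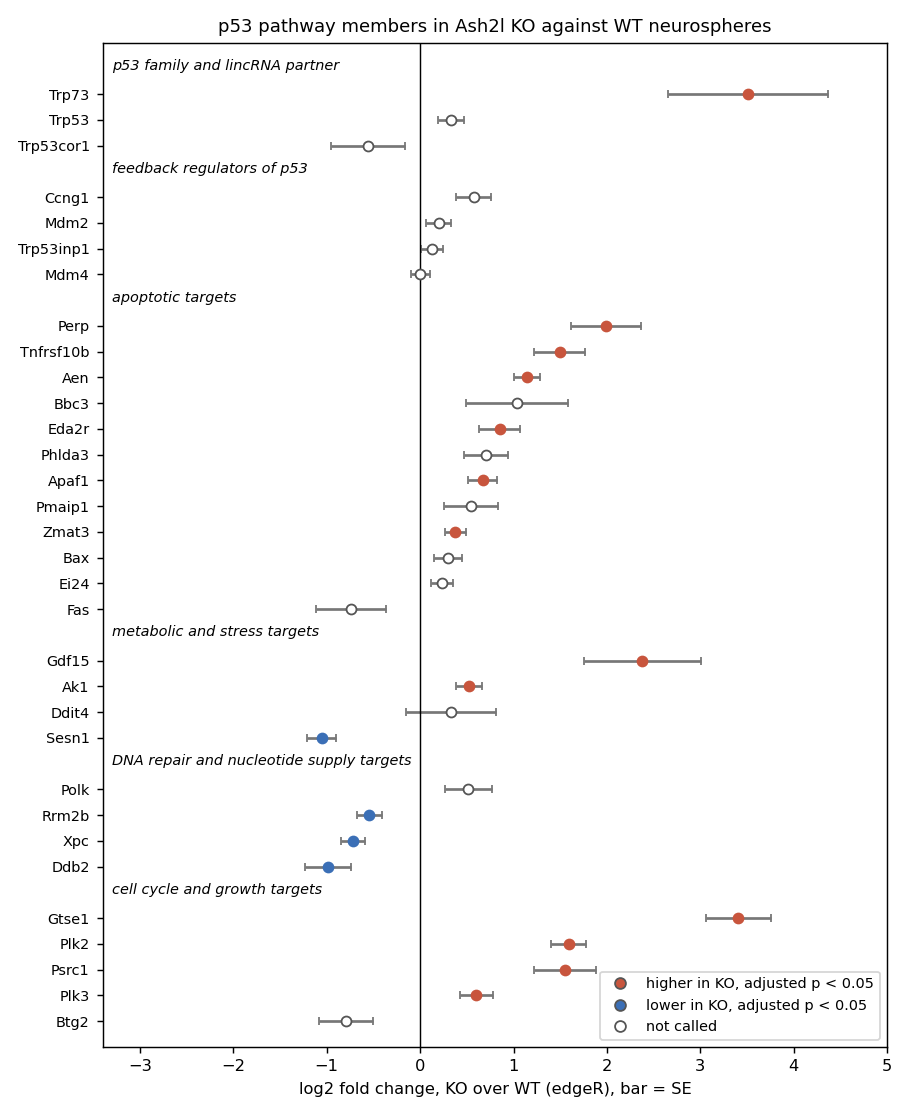
Log2 fold change of KO over WT for each of the 32 members (points, with the SE as bars), grouped by role, from the edgeR fit of 3 WT and 3 KO libraries. Filled points passed an adjusted p of 0.05: 13 members lie to the right, among them Trp73 at 3.51 and Gtse1 at 3.41, and 4 to the left, with Sesn1 lowest at -1.05.

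Levels among the members were compared per length, as the deposited FPKM. In WT the mean FPKM ran from 0.333 for Trp73, 0.859 for Perp and 0.988 for Tnfrsf10b up to 84.3 for Bax and 193 for Ddit4. Of the members that rose, Trp73, Gtse1, Gdf15 and Perp, with the largest log2 fold changes, had a WT FPKM of 0.333, 2.46, 1.73 and 0.859, and Plk2 and Psrc1 one of 12.4 and 14.1. Bax, the most abundant apoptotic member, had a mean FPKM of 84.3 ± 7.66 in WT and 108 ± 15.0 in KO (SD, n = 3 each). Trp53 had an FPKM of 19.6 ± 2.51 in WT and 25.7 ± 1.74 in KO.

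Of the p53 family and its partner RNA, Trp73 was higher and Trp53 and Trp53cor1 did not pass. Trp53 (chromosome 11 from 69580359 to 69591873 on mm10) measured 67.3 CPM in WT 3, 84.9 in WT 6 and 91.8 in WT 7, against 92.7 in KO 1, 106 in KO 2 and 108 in KO 3. The KO libraries all lay above the WT libraries, though KO 1 only just above WT 7, and WT 3 was the lowest. The log2 fold change was 0.33 (SE 0.14) and did not pass (edgeR adjusted p = 0.115), nor did it without any single library. Trp73 (chromosome 4 from 154056253 to 154140208), whose protein p73 shares many targets with p53 and has a known role in the developing brain, measured 3.42, 1.05 and 1.09 CPM in WT and 39.7, 18.7 and 4.59 CPM in KO, in the same order of libraries. The KO libraries differed among themselves more than KO 3 differed from WT 3. Its rise was 11.4-fold (log2 fold change 3.51, SE 0.86, edgeR adjusted p = 0.0238), 2.69 on the log2 scale without KO 1, 4.28 without WT 3 and 4.77 without WT 3 and KO 3 together. The call ended without WT 6, WT 7, KO 1 or KO 2 and on the log2(FPKM + 1) scale. KO 1, the library with the most Trp73, was also the one with 267 CPM of mural and meningeal markers, whose part in the result was not tested. Trp53cor1, known as lincRNA-p21, averaged 3.89 ± 1.51 CPM over WT and 2.64 ± 0.961 over KO (SD, n = 3 each), with overlapping groups (adjusted p = 0.309, edgeR). Its span overlaps another gene on the opposite strand that has 54.4% of its count, and the use of strand in counting is not stated. The third family member, Trp63, had 17, 19 and 2 reads in KO 1, KO 2 and KO 3 and 0 in each WT library, where a count of 0 allows up to 3 reads, and did not pass the filter on low counts. Of the settings that tested it, it was called higher with no filter (edgeR adjusted p = 0.0061), with DESeq2 (adjusted p = 0.0017) and with WT 3 or KO 3 left out (adjusted p = 0.0353 and 0.0133). It was not called without WT 6 (adjusted p = 0.0884), without WT 7 (adjusted p = 0.0853) or on the unfiltered log2(FPKM + 1) scale (adjusted p = 0.177).

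Of the feedback genes 0 of 4 passed the edgeR test, against 29% of all genes tested. DESeq2 and limma-voom each called Ccng1 alone, where they called 28.3% and 48.5% of all genes. Mdm2 (chromosome 10 from 117688875 to 117710758), the main inhibitor of p53 and a standard target of it, measured 72.3, 72.5 and 70.5 CPM in WT and 76.2, 72.7 and 98.1 CPM in KO. Of the 6 libraries 5 were nearly level, and KO 3 stood above them. The log2 fold change was 0.20 (SE 0.13, edgeR adjusted p = 0.284) and 0.068 without KO 3. Mdm4, the second inhibitor, related to MDM2, averaged 191 ± 15.0 CPM over WT and 191 ± 8.83 over KO (SD, n = 3 each, log2 fold change 0.0022, SE 0.10). Trp53inp1, a stress-induced cofactor of p53, was at 139 ± 5.27 and 152 ± 18.9 CPM, with overlapping groups. Ccng1, cyclin G1, a target that recruits phosphatase PP2A to MDM2, measured 128, 133 and 203 CPM in WT and 219, 227 and 245 CPM in KO. All KO libraries lay above WT 7, the highest WT library, and far above the other WT libraries. With a log2 fold change of 0.57 (SE 0.19) it missed the threshold in the edgeR test (adjusted p = 0.0603), passed without WT 7 (0.81, adjusted p = 0.0143) and passed with DESeq2 (adjusted p = 0.041) and limma-voom (adjusted p = 0.0332).

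Of 12 apoptotic targets 6 were higher in KO and none was lower, against 13.5% and 15.5% of all genes. The log2 fold change was above 0 for 11 of them, and for 8324 of all 16606 genes. The median of the 12 was 0.69. With DESeq2 and limma-voom, too, no apoptotic member was lower, against 13.7% and 23.6% of all genes. Aen, a nuclease that helps to degrade DNA in apoptosis (chromosome 7 from 78895854 to 78911209), measured 69.2, 53.4 and 73.9 CPM in WT and 145, 142 and 147 CPM in KO. The KO libraries were nearly level with each other, and all lay far above the WT libraries. The rise was 2.21-fold and the log2 fold change was 1.14 (SE 0.14, edgeR adjusted p = 0.00257). Tnfrsf10b, the death receptor for the ligand TRAIL (chromosome 14 from 69767472 to 69784411), measured 5.16, 4.42 and 6.96 CPM in WT and 14.2, 12.3 and 20.1 CPM in KO. It rose 2.81-fold (log2 fold change 1.49, SE 0.28, edgeR adjusted p = 0.00938). Perp, a membrane protein of desmosomes and a p53 effector (chromosome 10 from 18845020 to 18857073), measured 1.35, 2.16 and 1.66 CPM in WT and 8.76, 7.72 and 4.11 CPM in KO. It rose 3.97-fold (1.99, SE 0.37, edgeR adjusted p = 0.00962) from few reads, 24 to 43 per WT library. The calls of Aen, Tnfrsf10b and Perp held whichever single library was left out and under the 9 other settings tried.

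The other 3 apoptotic members that rose did so by less, and each call ended when any of several libraries was left out. The share of all genes called also moved, from 29% with all 6 libraries to 38.2% without WT 3 and 12.8% without WT 6. Without WT 7, KO 1, KO 2 or KO 3 it was 14.4%, 16.8%, 14.6% and 25.1%. Eda2r, a receptor of the TNF receptor family for ectodysplasin A2, measured 34.8, 33.1 and 47.8 CPM in WT against 56.2, 64.2 and 88.2 in KO, as CPM (log2 fold change 0.85, SE 0.22). KO 3 was the highest, and the call ended without WT 6, KO 2 or KO 3. Apaf1, the scaffold of the apoptosome that activates caspase 9, measured 50.1, 37.4 and 36.0 CPM in WT and 70.5, 60.1 and 65.6 CPM in KO (0.67, SE 0.16). Every KO library lay above WT 3, the highest WT library, and the call ended without WT 6, WT 7 or KO 1. Zmat3, an RNA-binding zinc finger protein and p53 target, measured 100.02, 102 and 116 CPM in WT and 126, 135 and 152 CPM in KO (0.38, SE 0.11). Its groups did not overlap, and it passed without KO 1 but with no other library left out, and neither without a filter nor with DESeq2. The adjusted p-values of Eda2r, Apaf1 and Zmat3 were 0.0266, 0.0201 and 0.0448 (edgeR).

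Of the apoptotic members, Bbc3, Pmaip1 and Bax, which act in the mitochondrial death pathway, did not pass. Bbc3, which encodes the BH3-only protein PUMA (chromosome 7 from 16308393 to 16318205), measured 75.4, 25.4 and 31.2 CPM in WT and 64.6, 51.0 and 155 CPM in KO. WT 3 lay above KO 1 and KO 2, and KO 3 was the highest of all. The log2 fold change of 1.04 (SE 0.54, edgeR adjusted p = 0.185) moved to 1.67 without WT 3, where it passed (adjusted p = 0.0278), and to 0.40 without KO 3 (adjusted p = 0.546). Bbc3 also passed with limma-voom (adjusted p = 0.0256). Of all genes, limma-voom called 48.5%, DESeq2 28.3% and the edgeR fit without WT 3 38.2%, against 29% in the edgeR test of all libraries. Without WT 3 and KO 3 together, the libraries with the most Bbc3 in their groups, the log2 fold change was again 1.04 and passed (adjusted p = 0.0052). That pair was chosen after seeing the data, and 42.9% of all genes were then called, so the pass cannot stand apart from that choice. Pmaip1, which encodes the BH3-only protein NOXA, measured 7.35, 8.94 and 13.1 CPM in WT and 12.2, 11.98 and 18.7 CPM in KO. Bax, the pore-forming effector that these proteins unleash, measured 118, 142 and 149 CPM in WT and 138, 182 and 182 CPM in KO. The groups overlapped for both, at log2 fold changes of 0.54 (SE 0.29) and 0.30 (SE 0.15). Fas, the death receptor for FAS ligand, measured 4.32, 4.07 and 8.85 CPM in WT and 3.40, 2.75 and 4.16 CPM in KO, the only apoptotic member with a negative log2 fold change (-0.74, SE 0.38), and stood at -0.29 without WT 7. Adjusted p-values of Pmaip1, Bax and Fas were 0.193, 0.172 and 0.174 (edgeR). Phlda3, an inhibitor of AKT, averaged 60.7 ± 19.9 CPM over WT and 98.7 ± 14.8 over KO (SD, n = 3 each), with all KO libraries above all WT libraries (0.70, SE 0.24, edgeR adjusted p = 0.0632). Like Ccng1 it was highest in WT 7 among the WT libraries, and it passed without WT 7 (0.99, adjusted p = 0.0177), with DESeq2 (adjusted p = 0.0320) and with limma-voom (adjusted p = 0.0368). Ei24, a membrane protein induced by p53, was at 161 ± 15.9 and 189.6 ± 13.9 CPM (0.23, SE 0.12).

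**Figure D2:**
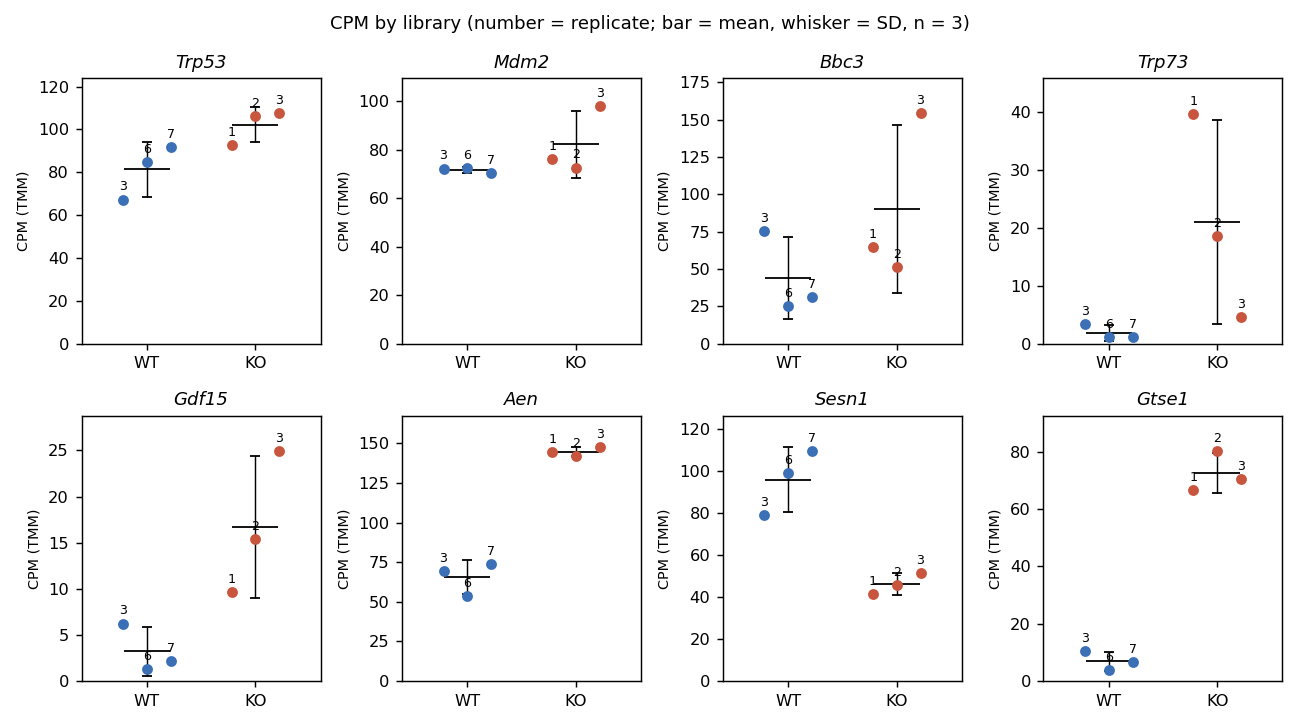
CPM (TMM-scaled) of 8 members in each library, with the replicate number beside each point, the group mean as a bar and the SD as a whisker (n = 3). Aen, Sesn1 and Gtse1 separate the groups widely, Mdm2 is level apart from KO 3, Trp73 spreads from 4.59 to 39.7 CPM within KO, and the groups of Bbc3 overlap.

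Metabolic and stress targets moved in both directions, with 2 of 4 higher and 1 lower, against 13.5% and 15.5% of all genes. Sesn1, a sestrin that activates AMPK and restrains mTORC1 (chromosome 10 from 41809935 to 41908424), measured 78.9, 98.9 and 109 CPM in WT and 41.2, 45.6 and 51.5 CPM in KO. Every KO library lay well below every WT library. The fall was 2.08-fold (log2 fold change -1.05, SE 0.15, edgeR adjusted p = 0.00421), and the call held whichever library was left out and under the 9 other settings. Gdf15, a secreted stress cytokine, measured 6.23, 1.31 and 2.13 CPM in WT and 9.68, 15.4 and 24.9 CPM in KO. WT 3 was the highest WT library and KO 3 the highest KO library. It rose 5.20-fold (2.38, SE 0.63, edgeR adjusted p = 0.0298), 3.27 on the log2 scale without WT 3, and the call ended without WT 6, WT 7, KO 2 or KO 3. Ak1, cytosolic adenylate kinase, measured 63.3, 57.1 and 69.8 CPM in WT and 86.1, 80.8 and 107 CPM in KO. It rose 1.44-fold (0.53, SE 0.14, edgeR adjusted p = 0.0317), and the call ended without WT 6, WT 7, KO 1 or KO 3. Ddit4, or REDD1, an inhibitor of mTORC1, measured 540.5, 299 and 187 CPM in WT and 247, 358 and 688 CPM in KO. Its spread within each group was wider than the difference between them (0.33, SE 0.48, edgeR adjusted p = 0.620), and without KO 3 it stood at -0.16.

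The repair targets were the role group with the most members lower: 3 of 4 fell and none rose (edgeR). Of all genes tested, 15.5% were lower and 13.5% higher. Xpc, the damage sensor of global nucleotide excision repair (chromosome 6 from 91489305 to 91515888), measured 38.4, 42.2 and 43.8 CPM in WT and 26.1, 22.5 and 26.8 CPM in KO. The fall was 1.65-fold (log2 fold change -0.72, SE 0.13, edgeR adjusted p = 0.00797) and the call held whichever library was left out. Ddb2, which recognises ultraviolet damage and hands it to XPC, measured 11.2, 10.9 and 11.5 CPM in WT and 5.76, 4.10 and 7.0 CPM in KO. The WT libraries were nearly level and all KO libraries lay below them (-0.99, SE 0.24, edgeR adjusted p = 0.0246), but the call ended without WT 6, WT 7, KO 1 or KO 2. Rrm2b, the p53-inducible ribonucleotide reductase subunit that supplies nucleotides for repair, measured 29.2, 35.3 and 36.3 CPM in WT and 22.7, 23.2 and 23.3 CPM in KO. It fell 1.46-fold (-0.55, SE 0.13, edgeR adjusted p = 0.0242), and passed without WT 3 but with no other library left out. The Rrm2b call also ended with no filter and on the log2(FPKM + 1) scale, filtered or not. Neither Ddb2 nor Rrm2b stands alone at its place: Acp2, on the opposite strand, has 730.3% of the Ddb2 count and Gm3362, on the same strand, 115% of the Rrm2b count, so reads could be shared. Polk, a DNA polymerase that copies past damage, averaged 16.0 ± 4.11 CPM over WT and 22.9 ± 5.12 over KO (SD, n = 3 each), with overlapping groups (0.52, SE 0.25, edgeR adjusted p = 0.153). It passed without WT 3 (0.72, adjusted p = 0.0479) and with limma-voom (adjusted p = 0.0299), settings that called 38.2% and 48.5% of all genes.

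Cell cycle and growth targets were higher in 4 of 5 cases, against 13.5% of all genes. Gtse1, a microtubule-binding protein of G2 that moves p53 out of the nucleus (chromosome 15 from 85859745 to 85876573), measured 10.3, 3.72 and 6.49 CPM in WT and 66.6, 80.2 and 70.5 CPM in KO. It rose 10.6-fold (log2 fold change 3.41, SE 0.35, edgeR adjusted p = 0.00175). The 15 proliferation genes had a median log2 fold change of 3.34, and among the WT libraries both Gtse1 and their summed level were highest in WT 3. WT 3 was the highest WT library for 40.6% of all genes, and a link between Gtse1 and the proliferation genes was not tested. Psrc1, a protein of the mitotic spindle, measured 62.8, 35.5 and 46.6 CPM in WT and 95.9, 119.7 and 208 CPM in KO. It rose 2.93-fold (1.55, SE 0.33, edgeR adjusted p = 0.0152), and the call ended without WT 6 or WT 7. Plk2, a polo-like kinase of early G1 and of neuronal synapses (chromosome 13 from 110395046 to 110400844), measured 67.9, 54.7 and 47.6 CPM in WT and 208, 156 and 149 CPM in KO. Every KO library lay far above the highest WT library, a rise of 3.01-fold (1.59, SE 0.19, edgeR adjusted p = 0.00246). The calls of Gtse1 and Plk2 held whichever library was left out and under the 9 other settings. Plk3, a stress-responsive polo-like kinase, measured 9.65, 11.8 and 9.71 CPM in WT and 14.4, 16.7 and 16.1 CPM in KO. Its groups did not overlap (0.60, SE 0.17, edgeR adjusted p = 0.0401), but the call ended whichever of the 6 libraries was left out. Btg2, an antiproliferative gene that marks neurogenic divisions, measured 175, 166 and 119.9 CPM in WT and 59.7, 78.4 and 128 CPM in KO. KO 3 lay within the WT range, and the log2 fold change of -0.79 (SE 0.29, edgeR adjusted p = 0.0802) became -1.14 without KO 3 (adjusted p = 0.0189). It also passed with no filter (adjusted p = 0.0305), with DESeq2 (adjusted p = 0.0392) and with limma-voom (adjusted p = 0.0140). These settings called 15.6%, 28.3% and 48.5% of the genes they tested.

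**Figure D3:**
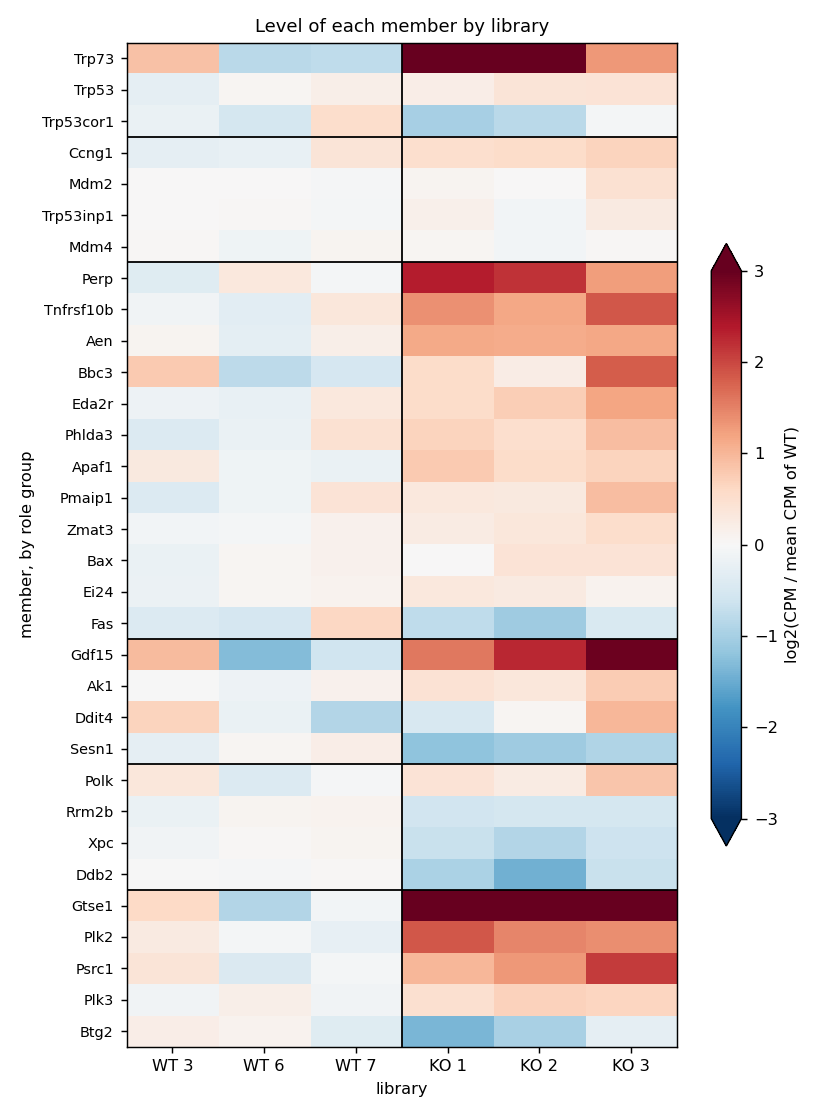
Level of each of the 32 members (rows, by role group) in each library (columns), as log2 of its CPM over the mean CPM of WT. KO 3 is the highest KO library in 23 rows, with Bbc3 and Gdf15 among them, and KO 1 is the highest for Trp73, Perp and Plk2.

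Within the KO group the members were not evenly spread over the libraries. KO 3 was the highest KO library for 23 of the 32 members (71.9%), and for 36% of all genes tested. KO 1 was the highest for 6 and KO 2 for 3. Members for which KO 3 was highest came from each role group, among them Trp53, Mdm2, Ccng1, Bbc3, Pmaip1, Eda2r, Phlda3, Gdf15, Ddit4, Xpc, Psrc1 and Btg2. Total counts of KO 3 (21007543) lay within the range of the WT libraries. In the WT group WT 7 was the highest library for 18 members (56.2%, and 31.8% of all genes), among them Trp53, Ccng1, Pmaip1, Fas, Eda2r, Phlda3 and Sesn1. WT 3, highest for 10, led for Bbc3, Gdf15, Ddit4, Trp73, Gtse1 and Psrc1. WT 3 was the WT library nearest the KO mean for 13 members (40.6%), and for 51.4% of all genes. What set these orders was not tested.

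Among further p53 targets, a list of 29 genes outside the members, 14 were higher, 2 were lower and 13 did not pass (13.5% and 15.5% of all genes were higher and lower), with a median log2 fold change of 0.72. Like the members and the other lists, this list was chosen with earlier results of these data known. Cdkn1a, which encodes the cell cycle inhibitor p21 and is the best known p53 target, measured 96.5, 87.1 and 170.1 CPM in WT and 251, 246 and 437 CPM in KO. All KO libraries lay above all WT libraries, with WT 7 and KO 3 the highest of their groups. The log2 fold change was 1.40 (SE 0.33, edgeR adjusted p = 0.0216), and the call ended without WT 6. Igfbp3, which binds insulin-like growth factors, and Ptprv, named for a receptor phosphatase, rose by log2 fold changes of 2.91 (SE 0.31) and 2.98 (SE 0.47). Ptprv, deposited as a processed transcript, rose from few reads: 5, 13 and 19 in WT 3, WT 6 and WT 7, a mean of 0.611 CPM. Abhd4, a lipase, fell by 2.21 (SE 0.32) on the log2 scale. The calls of these 3 held whichever library was left out.

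Of 21 upstream regulators tested, 2 were higher and 3 lower, near or under the 13.5% and 15.5% of all genes, 16 did not pass, and the median log2 fold change was 0.057. The checkpoint kinase genes Chek1 and Chek2, whose products phosphorylate p53 after DNA damage, rose by 3.21 (SE 0.24) and 1.47 (SE 0.18). Chek1 measured 3.98, 3.06 and 3.17 CPM in WT and 27.6, 40.4 and 26.4 CPM in KO. The 15 proliferation genes had a median log2 fold change of 3.34. Among the KO libraries both Chek1 and their summed level were highest in KO 2, and a link between them was not tested. Trp53bp2, or ASPP2, which steers p53 towards apoptotic genes, and Hipk2, a kinase that phosphorylates p53 in apoptosis, fell by 0.98 (SE 0.12) and 1.08 (SE 0.17). The calls of these 4 held whichever library was left out (edgeR adjusted p from 0.000855 for Chek1 to 0.00534 for Hipk2).

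Of 18 genes of the BCL2 family and the caspases, 3 were higher, 5 lower and 10 did not pass, where 13.5% and 15.5% of all genes were higher and lower, and the median log2 fold change was -0.00073. Cycs, cytochrome c, which triggers the apoptosome after its release, and Casp8, the caspase of death receptors, rose by 1.53 (SE 0.19) and 1.97 (SE 0.29), Casp8 from 0.556 CPM in WT. Bmf, a BH3-only gene, and Casp6, an executioner caspase, fell by 1.64 (SE 0.27) and 0.75 (SE 0.14). The call of Casp6 ended without WT 6, and those of the other 3 held whichever library was left out.

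**Figure D4:**
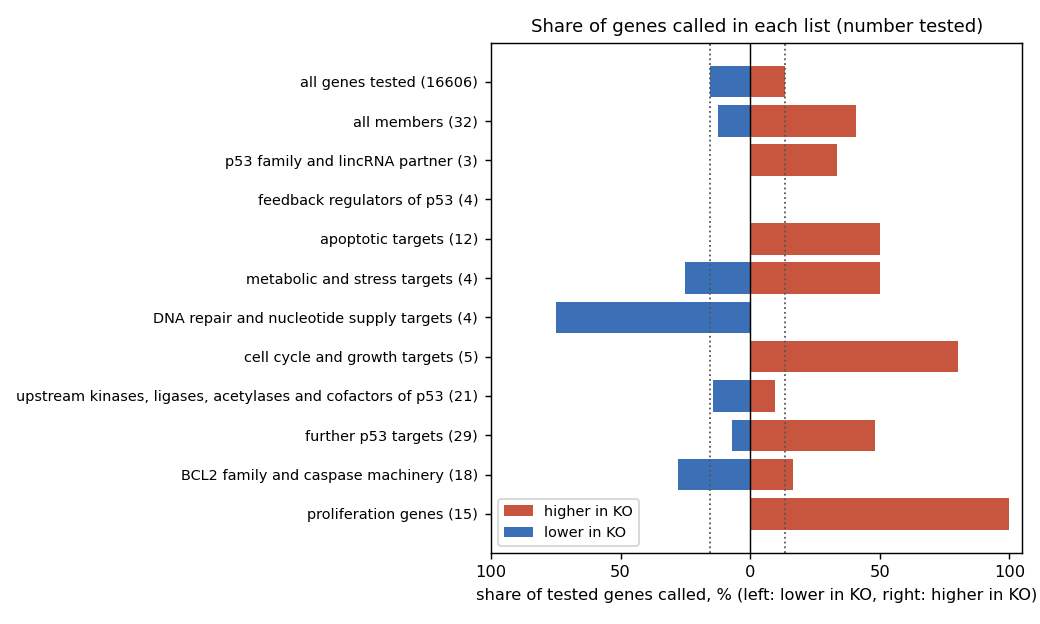
Share of tested genes that were higher (right) or lower (left) in KO at an edgeR adjusted p of 0.05, for all genes, the 32 members, their role groups and 4 further lists, with the number tested in brackets. Dotted lines mark the shares over all 16606 genes, 13.5% higher and 15.5% lower.

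**Figure D5:**
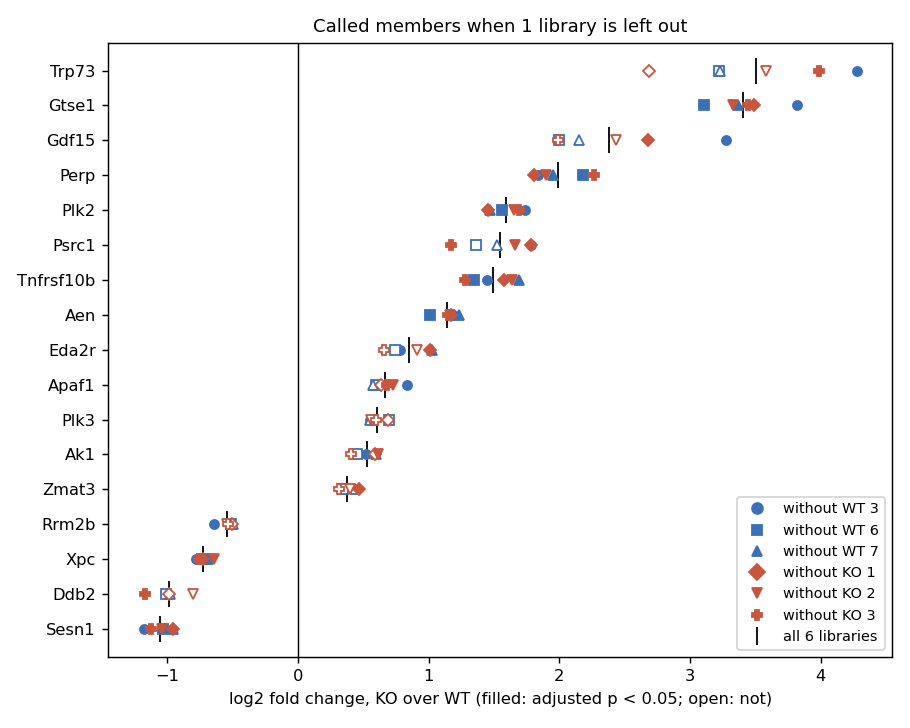
Log2 fold change of the 17 members that passed, with all 6 libraries (black bars) and with each library left out (symbols, filled where the adjusted p stayed under 0.05). Tnfrsf10b, Perp, Aen, Sesn1, Xpc, Gtse1 and Plk2 stay filled throughout, and all 6 symbols of Plk3 are open.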

How the data were processed

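The deposited table held whole-number read counts per gene for 6 libraries, which the authors had not normalised, and FPKM values made by the authors from counts and gene length, per the file headers and the values. The headers of the FPKM columns repeat those of the counts. Per the submitters' processing notes, the build was mm10 and the tools were DESeq2 1.16.1, featureCounts 1.5.0-p3 and HISAT2 2.0.5. Settings and the use of strand: not given in the sources used here. All 192 member FPKM values gave back the count within 0.1%.

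Libraries were grouped by their titles. All 6 libraries entered 1 model of KO over WT, with no covariate: TMM, the filterByExpr defaults, and the two-sided quasi-likelihood test of edgeR 4.0.16 (R 4.3.3), tested on simulated data. The SE is the absolute log2 fold change divided by the square root of F. With 3 libraries in each group, exact permutation can give no p under 0.1. Alternatives used DESeq2 1.42.0 and limma 3.58.1. Members and lists were chosen with earlier results of these data known, and no list was tested as a whole. Values by library are given for members that passed and for Trp53, Mdm2, Bax, Bbc3, Pmaip1 and Fas. The other members are given as means or, for Ccng1, Ddit4 and Btg2, by library, chosen after their values were seen. In the 3 further lists the 4 genes with the lowest p that passed are named, and Cdkn1a, except 1 gene that is not reported here. Gene length, in bases, is the deposited column.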

Additional observations from a re-analysis of the deposited data

How the results depend on the processing

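Of 17 members called, 7 were called whichever library was left out and under the 9 other settings (RLE size factors, library totals only, no filter, 1 CPM in 3 libraries, DESeq2, limma-voom with quality weights, and 3 FPKM scales). Leaving out 1 library gave 5 to 13 members higher and 2 to 4 lower, 11 to 23 genes of the other pathway lists higher and 4 to 12 lower, and 1027 to 3500 of all genes higher and 1151 to 3141 lower. Limma-voom called 4133 of all genes higher and 3919 lower, and limma on log2(FPKM + 1) without a filter called 1588 lower, and 5 of the other pathway lists lower. Without WT 3 and KO 3 together, chosen after seeing the data, 3842 of all genes were higher and 3407 lower, with 10 members higher and 5 lower and 22 genes of the other lists higher. Of 512 values of single members under an alternative, 433 kept direction and side of the threshold, 53 lost the call, 24 gained it and 2 changed sign, Mdm4 without WT 6 (-0.066, range up to 0.042 without KO 2) and Ddit4 without KO 3 (-0.16, range up to 0.82 without WT 3), neither of them called. The cause of these shifts was not tested. No paired analysis was possible because the groups share only 1 replicate number. With 3 libraries a group, members near the threshold cannot be settled, and Perp, Trp73 and Gdf15 rest on few WT reads.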
